A study of Mus musculus with 10 samples.

Results

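The MAP kinase phosphatases of the dual-specificity (Dusp) family were followed across the hearts of PKCz-deficient and wild-type mice infused with angiotensin II or with saline buffer. The members were 8 genes, Dusp1, Dusp2, Dusp4, Dusp5, Dusp6, Dusp8, Dusp10 and Dusp16, and every probe set to which the array's annotation gave 1 of these symbols alone was taken. This gave 12 of the 45037 probe sets tested and 8 of the 18193 genes with a probe set of their own. Of the members, 5 genes had 1 probe set, Dusp10 and Dusp16 had 2 each, and Dusp8 had 3. A probe set is a group of short probes for 1 transcript, summarised to 1 value per array.

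The arrays fell into 4 groups of male SV129 littermates aged 32 weeks: PKCz −/− mice with angiotensin II (KO AngII, n = 2), PKCz −/− mice with PBS (KO PBS, n = 3), wild-type mice with angiotensin II (WT AngII, n = 3) and wild-type mice with PBS (WT PBS, n = 2). Osmotic minipumps under the skin delivered the peptide hormone angiotensin II, a vasoconstrictor and a stimulus of cardiac hypertrophy, over 14 days at a daily dose of 432 µg per kg. The PBS groups are called non-treated in their source label. Which cells lack PKCz, and whether each array is a separate animal, are not given in the labels, so a p-value here covers the scatter of these arrays, which may be technical. An array is called by its group and the number in its title, as in KO PBS 4.

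MAP kinases, namely ERK1 and ERK2, the JNKs, the p38 kinases and ERK5, are switched on when a kinase above them phosphorylates a threonine and a tyrosine in their activation loop. The phosphatases described here remove both phosphates and so switch the kinases off again. Dusp1, Dusp2, Dusp4 and Dusp5 are nuclear and are transcribed soon after a stimulus. Dusp1 acts on p38, JNK and ERK, and Dusp5 on ERK. Dusp6 is cytoplasmic and specific for ERK1 and ERK2, and its own transcription follows ERK activity, which makes it a feedback inhibitor. Dusp8, Dusp10 and Dusp16 prefer JNK and p38. In the mouse heart, loss of Dusp6 is known to raise ERK phosphorylation.

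Levels are RMA values on a log2 scale, so that a difference of 1 is a 2-fold change, and the array medians lay between 6.12 and 6.23. The probe set of highest mean for Prkcz, the gene of PKCz, read 5.70 to 5.87 on the 5 KO arrays, against 6.23 to 6.45 on the 5 WT arrays. The KO minus WT difference averaged over treatment was −0.53 ± 0.09 (SE), with an adjusted p of 0.126 in limma. The 6 markers of cardiomyocytes, the cells of heart muscle, averaged between 13.87 and 13.99 on every array. On KO AngII 3, KO AngII 4 and KO PBS 4, bacterial poly-A control transcripts averaged 6.90 to 7.08, against 12.86 to 13.33 on the other 7 arrays (24 probe sets). The beta-actin 3' minus 5' signal was 0.74 to 0.83 on those 3 low-control arrays, against 0.92 to 1.70 on the 7 high-control arrays. WT AngII 2 stood apart in its cell type markers: fibroblast markers deviated from their own means by 1.69 there, against −0.53 to 0.33 on the other arrays, and macrophage markers by 0.97, against −0.40 to 0.20. In whole hearts, fewer cells of a type and less RNA per cell cannot be told apart.

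The 250 bases before the start site are shown for Dusp1, Dusp8 and Dusp6, because Dusp1, 1 of 3 Dusp8 probe sets and Dusp6 had the lowest KO minus WT differences under PBS, and because Dusp6 varied most over the arrays. The sequences are those of RefSeq on build GRCm38.p6, and 7 of the 8 members were matched to one in the table used here. Capitals mark the cAMP response element TGACGTCA, the site bound by CREB and ATF factors, and sequences read 5′ to 3′ on the gene's strand.
Dusp1, chr17:26508473-26508722, minus strand: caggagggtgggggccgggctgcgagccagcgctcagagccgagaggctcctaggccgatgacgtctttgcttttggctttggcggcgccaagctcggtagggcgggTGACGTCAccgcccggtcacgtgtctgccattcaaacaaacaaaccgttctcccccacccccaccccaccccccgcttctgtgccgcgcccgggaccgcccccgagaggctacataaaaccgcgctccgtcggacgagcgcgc
Dusp8, chr7:142095285-142095534, minus strand: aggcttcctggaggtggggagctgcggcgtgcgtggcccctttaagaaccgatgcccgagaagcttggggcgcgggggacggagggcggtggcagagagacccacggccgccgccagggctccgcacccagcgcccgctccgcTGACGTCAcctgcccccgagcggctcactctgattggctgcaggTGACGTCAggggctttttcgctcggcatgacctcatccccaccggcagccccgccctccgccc
Dusp6, chr10:99262981-99263230, plus strand: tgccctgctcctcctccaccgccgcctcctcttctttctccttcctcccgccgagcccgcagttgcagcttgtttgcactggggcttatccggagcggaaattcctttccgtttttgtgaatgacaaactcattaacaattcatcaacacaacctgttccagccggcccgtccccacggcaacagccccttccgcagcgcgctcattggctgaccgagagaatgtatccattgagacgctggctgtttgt

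Counted back from the start site, Dusp1 held the element at −143 to −136, and Dusp8 held it at −107 to −100 and again at −63 to −56. Of 32851 promoter windows of the same length, 508 (1.55%) held it and 10 (0.0304%) held 2 or more. Dusp5 did not hold it and had 2 CArG boxes, the site of serum response factor, at −82 to −73 and −72 to −63, a motif found in 1.47% of windows. The motifs were chosen with results of these data known and searched on both strands. The AP-1 site TGANTCA (6.75% of windows) and the ETS site CCGGAA (12% of windows) were in no member's window, the GC box GGGCGG (32.7% of windows) was in 6 of 7, overlapping itself at 1 place in Dusp16, and the E-box CACGTG (6.02% of windows) was in Dusp1 and Dusp2. None of these 6 motifs was in the Dusp6 window, which says only that these letters are not in those bases.

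Among the nuclear inducible members, Dusp1 had its lowest mean in KO AngII hearts and its highest in WT PBS hearts. Its levels were 10.77 and 11.03 in KO AngII, 11.10, 11.39 and 10.42 in KO PBS, 11.09, 10.90 and 11.25 in WT AngII, and 11.34 and 11.89 in WT PBS. Both WT PBS arrays lay above all 3 WT AngII arrays, and KO PBS overlapped WT PBS by 1 array. The group means were 10.90 ± 0.18 in KO AngII (n = 2), 10.97 ± 0.50 in KO PBS (n = 3), 11.08 ± 0.18 in WT AngII (n = 3) and 11.61 ± 0.39 in WT PBS (SD, n = 2). In that order KO AngII overlapped KO PBS, and KO PBS overlapped WT AngII. Under PBS, Dusp1 was 0.64 ± 0.25 log2 below WT in KO (difference −0.64, unadjusted p = 0.0258, adjusted p = 0.745). In WT, AngII hearts were lower than PBS hearts by a difference of −0.53 ± 0.25 (unadjusted p = 0.0557, adjusted p = 0.93). These 2 comparisons share the WT PBS arrays, and without WT PBS 5 the differences were −0.37 and −0.26. In KO, the AngII minus PBS difference was −0.07, and it was 0.48 with the control-transcript class as a block.

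The other nuclear inducible members differed little between groups. Dusp2, a phosphatase best known from immune cells, read 7.16 and 6.94 in KO AngII, 6.73, 6.68 and 7.06 in KO PBS, 6.72, 7.12 and 6.91 in WT AngII, and 6.63 and 6.92 in WT PBS. Dusp4, which acts on ERK, JNK and p38, read 5.40 and 5.40 in KO AngII, 5.33, 5.83 and 5.49 in KO PBS, 5.70, 5.37 and 5.70 in WT AngII, and 5.64 and 5.77 in WT PBS. The groups overlapped for both genes in all 4 comparisons of 2 groups. Dusp5, the nuclear ERK phosphatase, read 7.64 and 7.58 in KO AngII, 7.88, 7.41 and 7.49 in KO PBS, 7.77, 7.51 and 7.47 in WT AngII, and 8.0 and 7.64 in WT PBS. Its groups overlapped as well. The largest fitted difference of these 3 genes in the comparisons of 2 groups was that of Dusp5 between AngII and PBS in WT, −0.24 ± 0.18 (unadjusted p = 0.228).

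**Figure D1:**
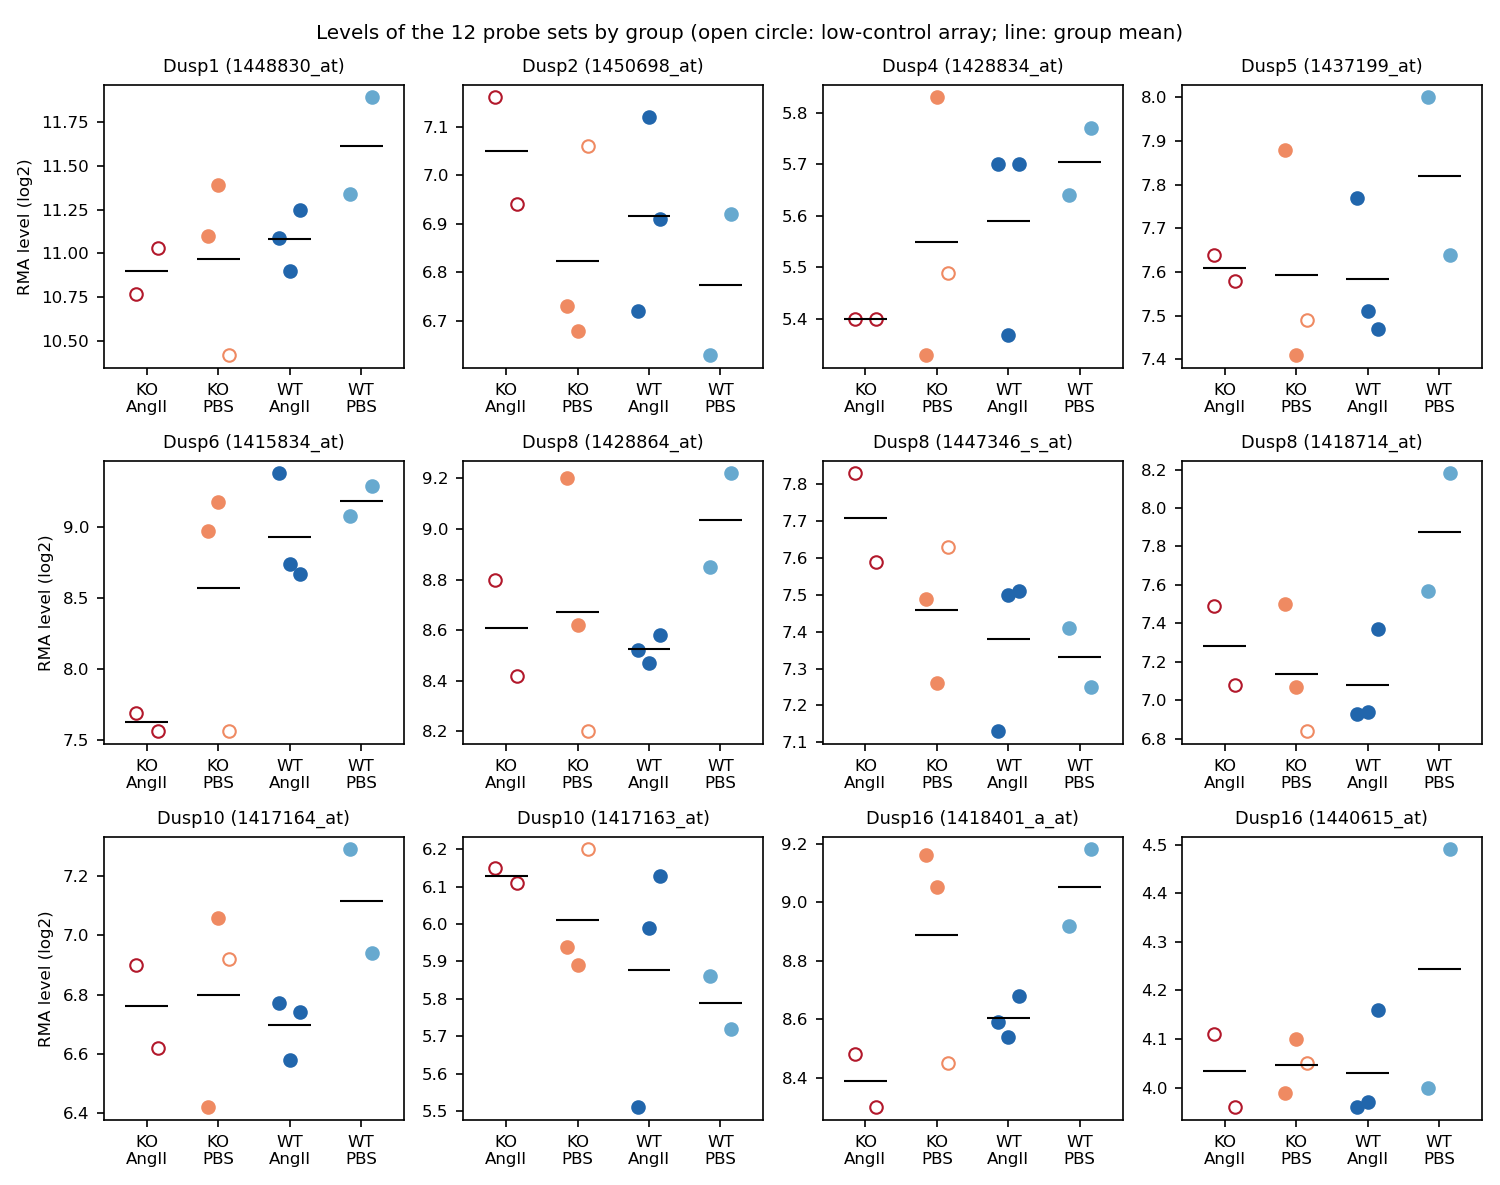
RMA level (log2, y axis) of the 12 probe sets on each array, by group (x axis), with open circles for the 3 low-control arrays, filled circles for the 7 high-control arrays and a line at each group mean. Dusp6 and Dusp16 (1418401_a_at) are lower on every open circle than on every filled one, and Dusp1 is highest in WT PBS.

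Dusp6, the cytoplasmic ERK phosphatase, varied most. It read 7.69 and 7.56 in KO AngII, 8.97, 9.18 and 7.56 in KO PBS, 9.38, 8.74 and 8.67 in WT AngII, and 9.08 and 9.29 in WT PBS. Both KO AngII arrays lay below all 8 other arrays but one, KO PBS 4, which read like them, while the other 2 KO PBS arrays lay within the WT range. Group means were 7.63 ± 0.09 (n = 2) in KO AngII, 8.57 ± 0.88 (n = 3) in KO PBS, 8.93 ± 0.39 (n = 3) in WT AngII and 9.18 ± 0.15 (SD, n = 2) in WT PBS. The SD over all 10 arrays, 0.73, was at the 99.4th percentile of the probe sets tested. In the order of the means, WT AngII overlapped WT PBS, KO PBS overlapped WT AngII and KO AngII overlapped KO PBS.

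Under AngII, Dusp6 was 2.47-fold lower in KO than in WT (difference −1.30 ± 0.39, unadjusted p = 0.00592, adjusted p = 0.734). Under PBS the KO minus WT difference was −0.61 ± 0.39 (unadjusted p = 0.141), and averaged over treatment it was −0.96 ± 0.27 (unadjusted p = 0.00464, adjusted p = 0.29). AngII minus PBS was −0.95 ± 0.39 in KO (unadjusted p = 0.0321, adjusted p = 0.892) and −0.26 ± 0.39 in WT (unadjusted p = 0.524). The difference between these effects was −0.69 ± 0.55 (unadjusted p = 0.234), so the AngII effect was not shown to differ between the genotypes. With weights for array quality, limma called Dusp6 lower in KO under AngII (difference −1.07, adjusted p = 0.02) and averaged over treatment (−0.83, adjusted p = 0.0387). These were the only calls of a member in any setting. The weights also raised the calls over all 45037 probe sets, to 2911 under AngII and 1562 averaged over treatment. Without weights these counts were 5 and 20. The weights ran from 0.22 for WT AngII 2 to 7.20 for WT AngII 4.

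The low values of Dusp6 were those of the 3 low-control arrays, 7.56 to 7.69, against 8.67 to 9.38 on the 7 high-control arrays. The gap of 0.98 between the sets was exceeded among falls on low-control arrays by 1 probe set of 45037, one of Ttn. In this direction 0.00444% of probe sets had a gap at least as large. In the other direction, higher on low-control arrays, 6 probe sets had a gap at least as large. Within KO PBS, the low-control array was 1.52 below the mean of the others (KO PBS 4 minus KO PBS 2 and 3, −1.52). With the class as a block, KO minus WT was 0.21 under AngII, −0.11 under PBS and 0.05 averaged over treatment, and AngII minus PBS in KO was 0.07. Without KO PBS 4, AngII minus PBS in KO was −1.45 (adjusted p = 0.0845 in limma) and KO minus WT under PBS was −0.11. Without that array, AngII and control class cannot be told apart in KO. Both KO AngII arrays are low-control, and KO PBS 2 and 3 are high-control. Both KO AngII arrays are low-control and all WT arrays high-control, so under AngII genotype and control class cannot be told apart, and the block value there rests on KO PBS 4. Without WT AngII 2, KO minus WT under AngII was −1.08 and AngII minus PBS in WT was −0.48.

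**Figure D2:**
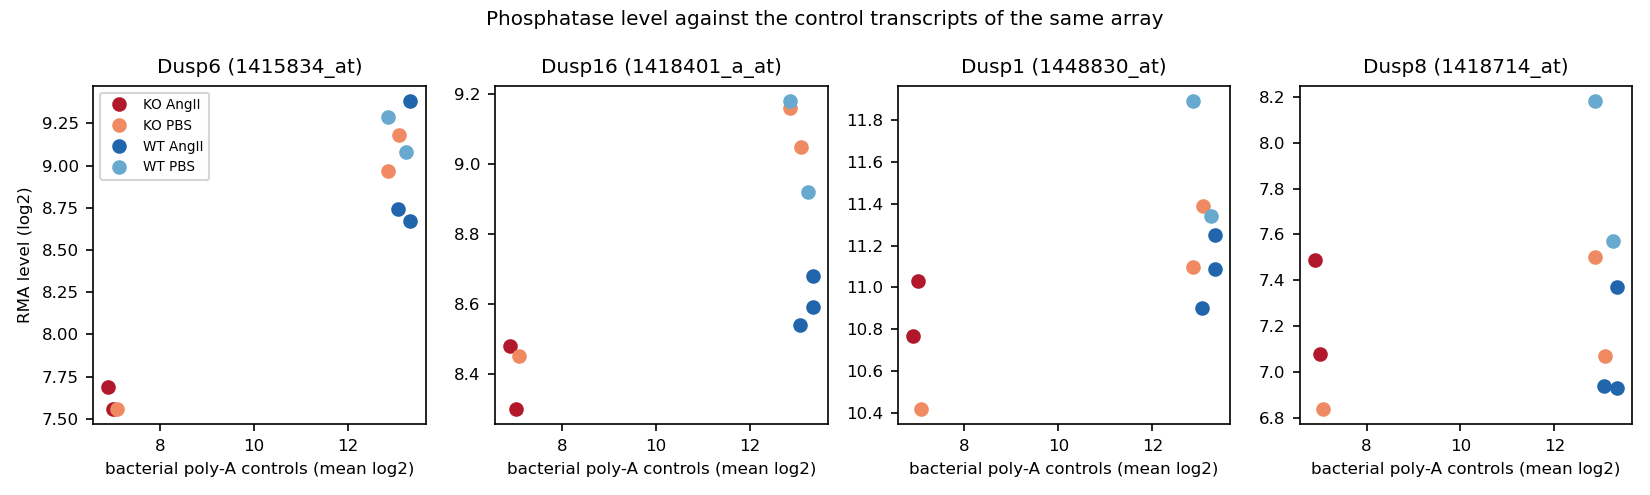
Level of Dusp6, Dusp16, Dusp1 and Dusp8 (RMA log2, y axis) against the mean level of the 24 bacterial poly-A control probe sets of the same array (log2, x axis), 1 point per array, coloured by group. Dusp6 reads 7.56 to 7.69 on the 3 arrays at the left and 8.67 to 9.38 on the 7 at the right, while Dusp1 and Dusp8 overlap.

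Among the JNK and p38 phosphatases, Dusp8 was described by 3 probe sets that did not move alike. The brightest, 1428864_at, read 8.80 and 8.42 in KO AngII, 9.20, 8.62 and 8.20 in KO PBS, 8.52, 8.47 and 8.58 in WT AngII, and 8.85 and 9.22 in WT PBS. The dimmest, 1418714_at (mean 7.30), read 7.49 and 7.08 in KO AngII, 7.50, 7.07 and 6.84 in KO PBS, 6.93, 6.94 and 7.37 in WT AngII, and 7.57 and 8.18 in WT PBS. For both probe sets the WT PBS arrays lay above all WT AngII arrays, and for 1418714_at they lay above all KO PBS arrays too. For 1418714_at, AngII minus PBS in WT was −0.80 ± 0.25 (unadjusted p = 0.00758, adjusted p = 0.93), KO minus WT under PBS was −0.74 ± 0.25 (unadjusted p = 0.0118, adjusted p = 0.701), and the AngII effect in KO minus that in WT was 0.94 ± 0.35 (unadjusted p = 0.0197, adjusted p = 1). All 3 rest on WT PBS, and without WT PBS 5 they were −0.49, −0.43 and 0.63. For 1428864_at the same differences were −0.51, −0.36 and 0.45. Without WT PBS 5 they were −0.33, −0.18 and 0.27, without KO PBS 4 the second and the third were −0.13 and 0.21, and with the control class as a block those 2 were −0.13 and 0.93. The remaining probe set, 1447346_s_at (mean 7.46), ranged from 7.13 to 7.83, with a difference of 0.05 between AngII and PBS in WT and of 0.13 between KO and WT under PBS.

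Dusp10 and Dusp16 completed this class. The brighter probe set of Dusp10, 1417164_at, read 6.90 and 6.62 in KO AngII, 6.42, 7.06 and 6.92 in KO PBS, 6.77, 6.58 and 6.74 in WT AngII, and 7.29 and 6.94 in WT PBS. WT AngII lay below WT PBS without overlap (difference −0.41 ± 0.20, unadjusted p = 0.063), and the other comparisons overlapped. The second probe set of Dusp10 ranged from 5.51 to 6.20 and differed by 0.09 between AngII and PBS in WT, so it did not show that difference.

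The brighter probe set of Dusp16, 1418401_a_at, read 8.48 and 8.30 in KO AngII, 9.16, 9.05 and 8.45 in KO PBS, 8.59, 8.54 and 8.68 in WT AngII, and 8.92 and 9.18 in WT PBS. AngII arrays were below PBS arrays in both genotypes, except that KO PBS 4 read like KO AngII. AngII minus PBS was −0.50 ± 0.20 in KO (unadjusted p = 0.0317, adjusted p = 0.892) and −0.45 ± 0.20 in WT (unadjusted p = 0.0486, adjusted p = 0.93), and averaged over genotype it was −0.47 ± 0.14 (unadjusted p = 0.00679, adjusted p = 0.483). With the control class as a block the difference was −0.06 in KO, −0.45 in WT, where all arrays are high-control, and −0.25 averaged over genotype. Like Dusp6, this probe set was lower on all 3 low-control arrays than on all others, but by a gap of 0.05. The second probe set of Dusp16 ranged from 3.96 to 4.49, near the lowest values of the arrays (3.06 to 3.20).

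Across all members, 0 of 12 probe sets passed an adjusted p of 0.05 in any of the 7 comparisons. The share of all probe sets that passed was 0% for AngII against PBS in WT, in KO and averaged over genotype and for the interaction, 0.0133% for KO against WT under PBS, 0.0111% under AngII and 0.0444% averaged over treatment. At an unadjusted p under 0.05 in limma, 2 of 12 were lower with AngII in WT (Dusp8 1418714_at and Dusp16 1418401_a_at), against 3.52% of all probe sets, and 2 were lower with AngII in KO (Dusp6 and Dusp16 1418401_a_at), against 2.4%. Among KO hearts under PBS, 2 were lower than WT (Dusp1 and Dusp8 1418714_at), against 3.58%, and under AngII 1 was lower (Dusp6), against 3.28%. Averaged over treatment 2 were lower in KO (Dusp1 and Dusp6), against 6.54%, averaged over genotype 1 was lower with AngII (Dusp16 1418401_a_at), against 6%, and in the interaction 1 was higher (Dusp8 1418714_at), against 1.15%. In the other direction 0 of 12 were higher at this p, against 1.71% of all probe sets with AngII in WT, 2.17% with AngII in KO, 2.72% in KO under PBS, 3.22% in KO under AngII, 5.86% in KO averaged over treatment and 3.63% with AngII averaged over genotype; 0 were lower in the interaction, against 0.482%.

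Groups without overlap were read the same way. With AngII in WT, 5 of 12 probe sets lay below PBS on every array, against 11.3% of all probe sets: Dusp1, 2 of Dusp8, 1 of Dusp10 and 1 of Dusp16. None lay above PBS on every array, against 8.4%. With AngII in KO 0 of 12 lay below PBS, against 10.8%, and 0 above, against 13.7%. In KO under PBS 1 lay below WT (Dusp8 1418714_at), against 10.8%, and 1 above (Dusp10 1417163_at), against 13.2%. In KO under AngII 2 lay below WT (Dusp6 and Dusp16 1418401_a_at), against 11.2%, and 1 above (Dusp8 1447346_s_at), against 16%. On low-control arrays 2 probe sets lay below all high-control arrays (Dusp6 and Dusp16 1418401_a_at), against 4.36%, and 1 above (Dusp8 1447346_s_at), against 5.06%.

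**Figure D3:**
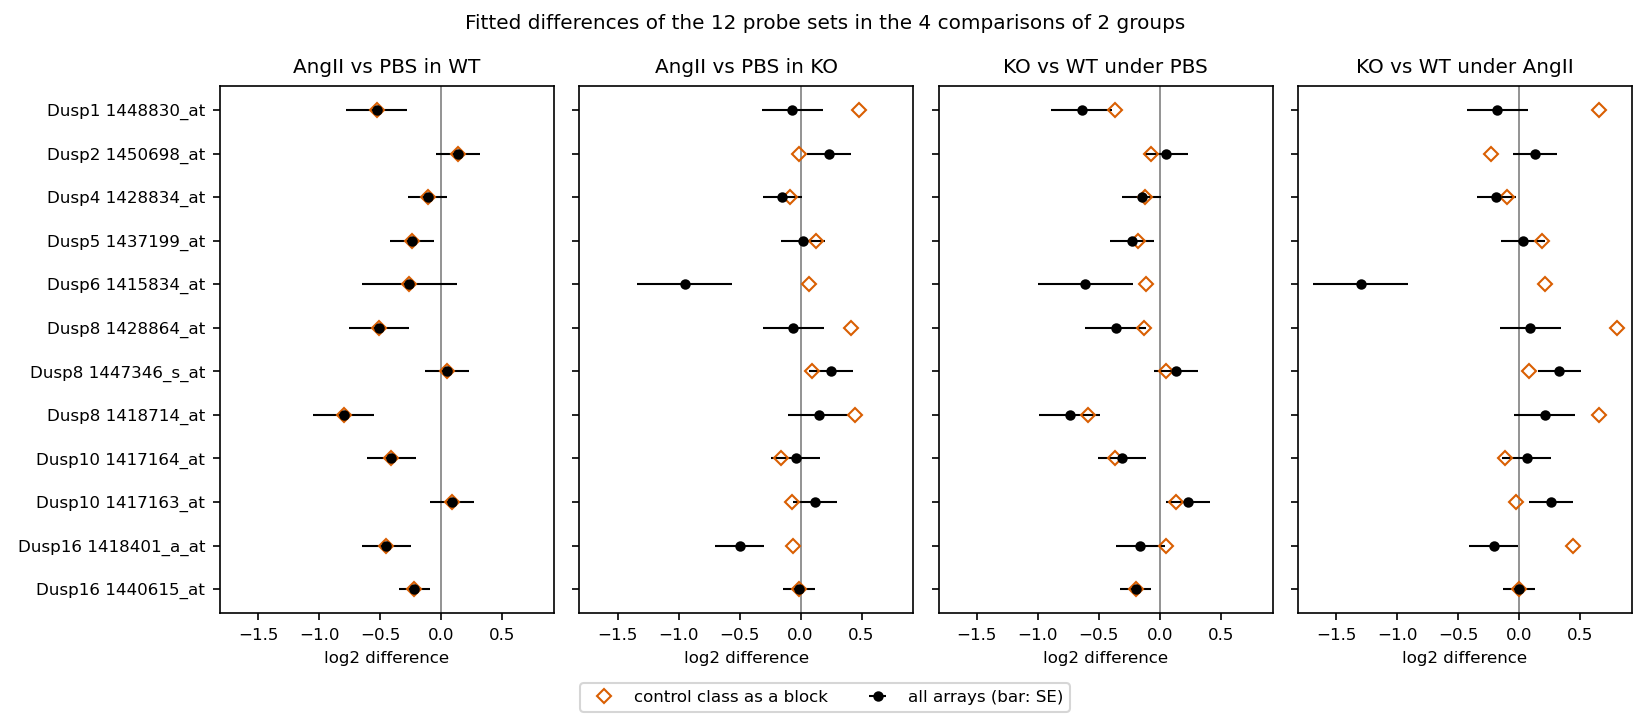
Log2 differences (x axis) of the 12 probe sets (rows) for AngII minus PBS in WT and in KO and for KO minus WT under PBS and under AngII; black points with SE bars are from all arrays, orange diamonds from the fit with the control class as a block. Points and diamonds coincide in WT, and for Dusp6 under AngII they lie at −1.30 and 0.21.

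For Dusp1 the KO minus WT difference was −0.64 under PBS and −0.18 under AngII, and for Dusp6 it was −0.61 and −1.30. With the control class as a block these were −0.37 ± 0.20 and 0.65 ± 0.30 for Dusp1 and −0.11 ± 0.23 and 0.21 ± 0.35 for Dusp6. Both genes then had their lower value under PBS, but the block values under AngII rest on KO PBS 4. Dusp2, Dusp4 and Dusp5 stood at 0.05, −0.15 and −0.23 under PBS and at 0.13, −0.19 and 0.03 under AngII. Whether Dusp6 differs from the nuclear members in these effects was not tested. The median over the 12 probe sets was −0.25 for AngII minus PBS in WT, with 9 below 0, and −0.21 for KO minus WT under PBS, also with 9 below 0. Over all probe sets these medians were both 0.01, with 48.4% and 46.5% below 0. Under AngII the members' median of KO minus WT was 0.04, with 4 of 12 below 0, against 0.03 and 42.5% over all probe sets.

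The substrates and the kinases above them were read beside the phosphatases. Of 8 measured MAP kinases, each by its brightest probe set, 0 were called, and their median difference was −0.13 for AngII minus PBS in WT, −0.11 in KO, −0.08 for KO minus WT under PBS and −0.13 under AngII. Mapk10, the JNK isoform of brain and heart, was −0.46 ± 0.20 in KO with AngII (unadjusted p = 0.0441, adjusted p = 0.892, −0.17 with the class as a block), and Mapk9, another JNK, was −0.34 ± 0.15 in KO under PBS (unadjusted p = 0.0476, adjusted p = 0.791). In WT, AngII minus PBS was −0.28 ± 0.15 for Mapk14 and −0.39 ± 0.20 for Mapk10 (unadjusted p = 0.0762 and 0.0804 in limma). For Mapk7, the gene of ERK5, it was 0.21 ± 0.14 (unadjusted p = 0.162). Of 6 measured MAP kinase kinases, 7 genes above ERK (adaptors, Ras and Raf) and 4 other MAP kinase phosphatases, 0 were called, and their medians lay between −0.25 and 0.18 in those 4 comparisons. Among these, Map2k6, a p38 activator, differed by 0.56 ± 0.26 between AngII and PBS in WT (unadjusted p = 0.0554), and Dusp7, a cytoplasmic ERK phosphatase related to Dusp6, by 0.33 ± 0.18 between KO and WT under PBS (unadjusted p = 0.0851).

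Most listed genes commonly induced through ERK stood below WT in KO under PBS, without passing the adjusted threshold. So did Dusp1 and, of Dusp8, 1428864_at and 1418714_at but not 1447346_s_at. Of 12 immediate early factors, 11 had a KO minus WT difference below 0 under PBS, against 50.6% of all genes, and 10 of them had an unadjusted p under 0.05, against 3.58% of all probe sets. Of these factors 0 were called, and their median was −1.33, against 0.00 over all genes. Egr2 stood at −2.64 ± 0.49 (adjusted p = 0.316), Btg2 at −1.95 ± 0.42 (adjusted p = 0.393) and Egr1 at −1.95 ± 0.43 (adjusted p = 0.405). Of 13 genes of ERK feedback and output, 12 were below 0 in this comparison, with a median of −0.35, and 0 were called. At an unadjusted p under 0.05 in limma, 4 were lower, against 3.58% of all probe sets. The 1 gene above 0 was higher at this p, against 2.72%. The receptor kinase inhibitor Errfi1 stood at −2.15 ± 0.34 (adjusted p = 0.168), Spry4 at −0.66 ± 0.15 (adjusted p = 0.415) and Phlda1 at −1.27 ± 0.33 (adjusted p = 0.535). With the class as a block the medians were −0.95 and −0.33.

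With AngII in WT, 11 of the 12 immediate early factors were below 0, against 51% of all genes, and 8 of them had an unadjusted p under 0.05, against 3.52% of all probe sets. Their median was −1.08, and 0 were called. The mean deviation of these 12 genes was −0.55 and −0.52 in KO AngII, −0.85 to 0.10 in KO PBS, −0.50 to 0.16 in WT AngII, and 0.75 and 1.46 in WT PBS. For the 8 phosphatase genes it was −0.28 and −0.15 in KO AngII, −0.31 to 0.15 in KO PBS, −0.10 to 0.06 in WT AngII, and 0.21 and 0.35 in WT PBS. Both WT PBS arrays were the highest of the 10 for either list. In KO minus WT under AngII the immediate early factors had a median of −0.42, and of 0.32 with the class as a block. Of 8 targets of glucocorticoids, hormones that also induce Dusp1, 5 were below 0 in KO under PBS, against 50.6% of all genes. Their median was −0.22, or −0.02 with the class as a block, and 0 were called. At an unadjusted p under 0.05, 3 were lower, against 3.58% of all probe sets, and 0 were higher. The 3 were Cdkn1a (−0.96 ± 0.31, adjusted p = 0.675), Sgk1 (−0.54 ± 0.20, adjusted p = 0.739) and Per1 (−0.72 ± 0.30, adjusted p = 0.763).

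**Figure D4:**
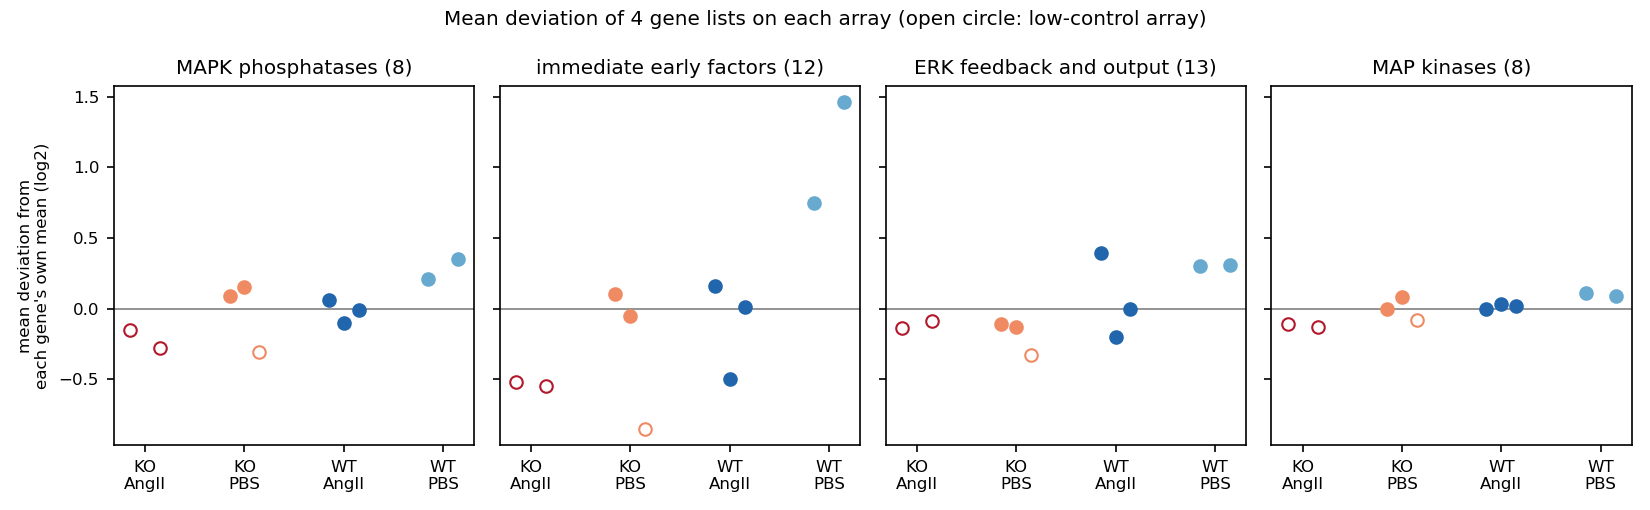
Mean deviation of the 8 phosphatase genes, 12 immediate early factors, 13 genes of ERK feedback and output and 8 MAP kinases from each gene's own mean (log2, y axis) on each array, by group (x axis), with open circles for low-control arrays. The immediate early factors stand at −0.85 to 0.16 in the other groups and at 0.75 and 1.46 on the WT PBS arrays.

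Markers of the cell types of the heart were read beside Dusp1 and Dusp8. Over their lists, KO minus WT under PBS had a median of −0.03 for 6 cardiomyocyte markers, −0.03 for 6 fibroblast markers, −0.22 for 6 endothelial markers, −0.26 for 6 smooth muscle markers, −0.32 for 6 macrophage markers and −0.70 for 4 neutrophil markers, and of 0.10 to 0.27 for lymphocyte, erythroid and adipocyte markers, with 0 called. With the control class as a block the median was −0.12 for endothelial, −0.38 for smooth muscle, −0.32 for macrophage and −0.34 for neutrophil markers. It was −0.02 for cardiomyocyte and −0.05 for fibroblast markers, and 0.03 to 0.14 for lymphocyte, erythroid and adipocyte markers. The neutrophil markers did not move alike in KO minus WT under PBS. Of the 4, 3 were below 0, with S100a9 at −1.40 and S100a8 at −1.35, while Camp stood at 0.20. As a list they deviated from their own means by −0.78 to 0.33 in KO PBS, against 0.08 on WT PBS 3 and 1.12 on WT PBS 5. With AngII in WT, Dusp1, Dusp16 and, of Dusp8, 1428864_at and 1418714_at stood below PBS. There the median was 0.68 for the fibroblast markers, with 6 of 6 above 0. It was 0.41 for the macrophage markers, with 5 of 6 above 0, and −0.67 for the neutrophil markers, with 3 of 4 below 0. On WT AngII 2 the fibroblast markers deviated by 1.69 and the macrophage markers by 0.97. On WT AngII 3 and 4 the fibroblast markers stood at −0.27 and −0.10, against −0.53 and −0.23 in WT PBS. The macrophage markers stood there at −0.04 and 0.07, against −0.14 and 0.20 in WT PBS. In these means both rises came mainly from WT AngII 2. The part of these cell types in the phosphatase differences was not tested.

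By the mean absolute difference of deviations over the 10 arrays, the genes nearest to Dusp1 among 18192 were Nup98 (0.108), Klf4 (0.110), 5033430I15Rik (0.110), Smim4 (0.112) and Kcna5 (0.117), where the median gene differed by 0.32. All 5 were higher on average in WT PBS than on the other arrays, Klf4 for example averaging 9.33 on the other arrays and 9.98 in WT PBS. The genes nearest to Dusp6 were Hnrnpl (0.151), Dnajb14 (0.160), Ap2b1 (0.210), Evi5 (0.215) and Vps54 (0.215), where the median gene differed by 0.61. All 5 were lower on average on the low-control arrays, Hnrnpl at 8.01 there and 9.33 on the high-control arrays. Both sets of genes were picked for their likeness to the member on these arrays, so sharing its pattern follows from the choice.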

How the data were processed

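Transcripts of mouse hearts were measured on 10 one-colour Affymetrix arrays, labelled from 6 µg of total RNA per the labels' protocols. The authors deposited log2 levels for 45101 probe sets. Per the submitters' processing notes they come from RMA, which corrects background, equalises the arrays' distributions and can compress small differences of dim probe sets. No RMA version or genome build is named in the sources used here. No read depth applies, and the number of arrays limits the precision.

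After 64 control probe sets were left out, 45037 entered 1 linear model with 4 group means and all 10 arrays (limma 3.58.1, R 4.3.3; eBayes trend, two-sided, 6 residual degrees of freedom), with Benjamini-Hochberg adjustment over all probe sets within each of 7 comparisons. Differences are given ± SE. Symbols came from the platform annotation, 34945 probe sets having 1, 932 several and 9160 none, updated through the RefSeq gene table by Entrez identifier for 34741. A gene is represented by its probe set of highest mean. Values per array are given for each member's representative and for any other member probe set with an unadjusted p under 0.05 in a comparison of 2 groups or the interaction, and the members of a list with the smallest unadjusted p are named. Control classes were set by the bacterial poly-A control probe sets. The members, lists and motifs were chosen with earlier results of these data known, so nothing about them is independent evidence. Alternatives were equal array medians, repeated quantile normalization, a filter on probe sets below the median level, other variance models, array weights, the arrays compared alone, the control class as a block, only high-control arrays, a replicate block and leaving out each array. The fit was tested on simulated data for 45037 probe sets, 200 of them changed: it recovered 82% of 2-fold and 100% of 4-fold changes for AngII against PBS in WT, with 13 false calls. The simulated noise was normal and independent between probe sets and arrays, without a control class or an outlying array. Recovery is over all changed probe sets, so it does not say how often a change in a member such as Dusp6 (SE 0.39) would be called. Python 3.11.15 drew the figures.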

Additional observations from a re-analysis of the deposited data

How the results depend on the processing

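No member was called in any of the 7 comparisons under any setting but array weights, which called 1 probe set, Dusp6, in KO against WT under AngII (−1.07, adjusted p = 0.02) and averaged over treatment (−0.83, adjusted p = 0.0387). In these 2 comparisons array weights called 2911 and 1562 of all 45037 probe sets, against 5 and 20 in the main fit. The counts of the main fit at an unadjusted p under 0.05 over all probe sets were 2356 (WT) and 2060 (KO) for AngII against PBS and 2930 for KO against WT under AngII. For 35 single differences of Dusp1, Dusp6, Dusp8 and Dusp16, 695 alternative values were computed, of which 45 changed sign, 28 of them in settings that account for the control class (as a block or by high-control arrays alone). With the class as a block, Dusp1 stood at 0.48 for AngII against PBS in KO, 0.65 for KO against WT under AngII and 0.14 averaged over treatment. Dusp6 stood at 0.07, 0.21 and 0.05 for the same comparisons and 0.32 for the interaction, and without WT AngII 2 at 0.07, 0.44, 0.16 and 0.54. Dusp8 1428864_at stood at 0.41 for AngII against PBS in KO and 0.34 for KO against WT averaged over treatment, and 1418714_at at 0.03 averaged over treatment (0.00 without WT AngII 2). Dusp16 stood at 0.39 for the interaction (0.38 without WT AngII 2), 0.05 for KO against WT under PBS (0.05 on high-control arrays alone), 0.44 under AngII and 0.25 averaged over treatment. Leaving out WT AngII 2 as well gave the same 2 decimals for the other values of this kind. Array weights turned Dusp8 1418714_at to −0.04 for KO against WT under AngII, and repeated quantile normalization turned Dusp8 1428864_at to 0.03 for AngII against PBS in KO. Deviations of arrays with the same title number correlated at r from −0.36 to 0.10 over 10 pairs. Over 27 other pairs r ran from −0.31 to 0.31. In a group of 2 arrays the deviations from the group mean mirror each other. These correlations therefore cannot decide whether the number pairs samples. With the number as a replicate block, 0 members were called and Dusp6 stood at −1.09 in KO against WT under AngII. Dusp8 1428864_at stood at 0.07 for AngII against PBS in KO and at 0.01 for KO against WT averaged over treatment. Dusp16 stood at 0.01 for KO against WT under PBS.

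Leaving out 1 array at a time, with a lone array assumed to vary like the other groups, gave −0.35 to 0.14 for Dusp1, −0.30 to 0.20 for Dusp8 1428864_at and −0.06 to 0.35 for 1418714_at in AngII against PBS in KO, −0.10 to 0.27 for Dusp8 1428864_at in KO against WT under AngII, and −0.27 to 0.09 in the interaction and −0.30 to 0.05 in KO against WT under PBS for Dusp16. Dusp6 stayed below 0, at −1.44 to −1.08 in KO against WT under AngII and −0.92 to −0.11 under PBS. The Prkcz difference was −0.56 to −0.50; its adjusted p passed 0.05 with equal array medians (−0.58), repeated quantile normalization (−0.58), array weights (−0.55) and without WT AngII 2 (−0.56). Why settings differ was not tested. Groups of 2 or 3 arrays and the confounding of KO AngII with the control class limit every KO difference under AngII.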
